A study of Mus musculus with 6 samples.

Results

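The genes described here are 36 genes of fatty acid oxidation and ketogenesis, chosen by name from the 57180 genes of the deposited expression table. They cover the carnitine shuttle, mitochondrial and peroxisomal beta-oxidation, omega-oxidation, ketone body enzymes, acyl-CoA thioesterases and a few further targets of the nuclear receptor PPARα. RNA came from primary hepatocytes of mice with a floxed STING gene, either as floxed controls (labelled LOXP) or crossed with Albumin-Cre (labelled KO, the STINGLKO mice), where Cre is driven in hepatocytes by the albumin promoter. The mice were male, on a C57BL/6 background and 8 to 10 weeks old. Hepatocytes were isolated by collagenase digestion, cultured with 0.1 µM dexamethasone and 10% serum, and treated with 0.1 mM palmitate for 24 h in both groups, so that no untreated cells were compared. There were 3 libraries per group, and the labels do not say whether they came from separate mice, so the p-values below measure the spread between these libraries, which may be technical.

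Fatty acids enter mitochondria as carnitine esters and are shortened there, 1 acetyl-CoA at a time, by an acyl-CoA dehydrogenase, a hydratase, a second dehydrogenase and a thiolase. Hepatocytes turn much of the acetyl-CoA made in fasting into ketone bodies, which are exported to other tissues. Very long and branched chains are first shortened in peroxisomes, and a smaller share is oxidised from the methyl end by the cytochrome P450 family 4 enzymes. Many of these genes in the mouse liver are activated by PPARα, a receptor that binds fatty acids and pairs with RXR on DNA.

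Counted reads per library ran from 14726983 to 18536985, and 14151 genes were tested by the quasi-likelihood method of edgeR, with p-values adjusted by Benjamini-Hochberg over all of them. No decrease of *Sting1*, the targeted gene, was detected in the KO libraries. It had 19, 16 and 23 counts in LOXP libraries 1, 2 and 3 and 24, 23 and 15 counts in KO libraries 1, 2 and 3 (log2 fold change -0.08, standard error (SE) 0.30, adjusted p = 0.883). By RT-PCR the paper reported that purified hepatocytes expressed the transcript and that knockout cells had lost it. Which exons were deleted is not given in the sources used here, and reads on the others would still be counted. Each direction below is therefore that of the libraries labelled KO relative to those labelled LOXP.

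Of the 36 genes, 35 had enough reads to be tested, and 13 of these passed at an adjusted p under 0.05. Lower in the KO libraries were 8 genes, *Bdh1*, *Pdk4*, *Etfdh*, *Ehhadh*, *Hadh*, *Crot*, *Acaa2* and *Acadm*. Higher were 5, *Acot1*, *Acaa1b*, *Cyp4a14*, *Acot2* and *Cpt2*. The 22 others did not pass. The lower calls made up 22.9% of the 35, beside 11.6% of all genes tested, and the higher calls 14.3%, beside 11.5%. The direction of the fitted change, passed or not, was lower for 21 and higher for 14, and the median log2 fold change was -0.09, beside -0.00 over all genes tested. These genes were measured more precisely than most, with a median standard error of 0.08 on the log2 scale against 0.11 for all genes tested, so that smaller changes could pass. Their changes were small, with a median absolute log2 fold change of 0.16, beside 0.21 over all genes. Of the 35, 5 exceeded 0.5 and 1 exceeded 1, beside 2528 and 657 of all 14151 genes tested.

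**Figure D1:**
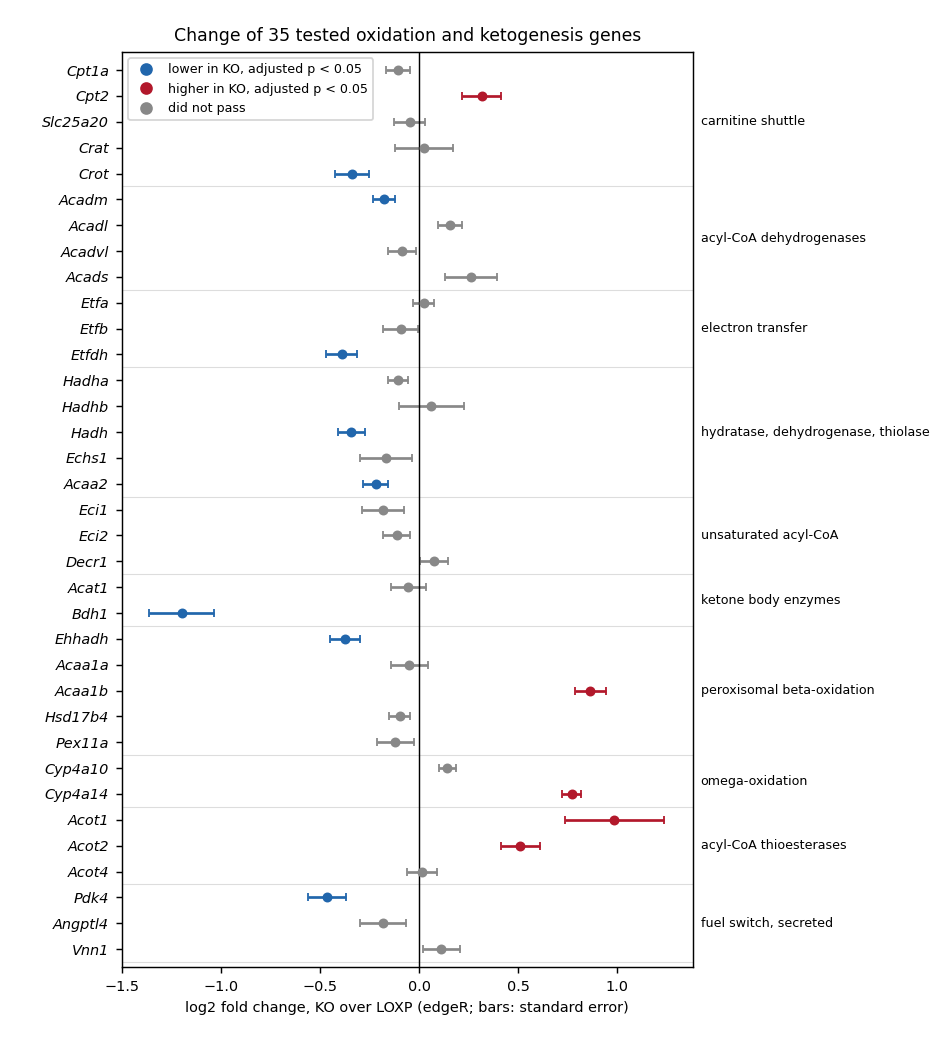
Log2 fold change of KO over LOXP libraries for the 35 tested genes, grouped by role, with bars for the standard error (n = 3 libraries per group). Blue points were lower and red points higher at an adjusted p under 0.05 in edgeR's quasi-likelihood test, and *Bdh1* at -1.20 and *Acot1* at 0.99 mark the ends of the range.

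In 10 of the 35 genes every KO library was below every LOXP library (28.6%, beside 20.3% of all genes tested), and in 7 of the 35 every KO library was above (beside 20.4% of all genes). The study's own criteria for a changed gene required a change of more than 1 on the log2 scale in either direction, an adjusted p below 0.05, and more than 1 FPKM on average in at least 1 group. FPKM relates the read count to gene length and sequencing depth. By these criteria *Bdh1* was lower, as were 1.49% of all genes tested, and no member was higher, beside 0.558% of all genes. *Bdh1* met the FPKM criterion narrowly and through the LOXP libraries only, with a mean of 1.14 FPKM against 0.508 FPKM in KO libraries. No rise exceeded 1 on the log2 scale in edgeR or DESeq2, with 0 such members also at an unadjusted p under 0.05. *Acot1*, at 0.99, came nearest, and it would have met the criteria without LOXP library 1 (1.05), LOXP library 3 (1.08) or KO library 1 (1.21).

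**Figure D2:**
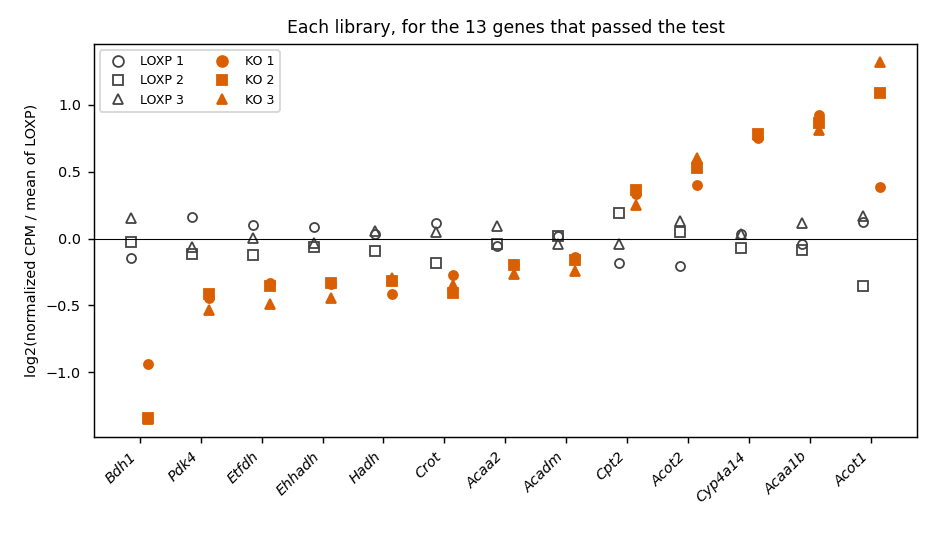
Normalized CPM of the 13 genes that passed, in each of the 6 libraries, as log2 of the ratio to the mean of the LOXP libraries. Open symbols are LOXP and filled symbols KO libraries, and in each of the 13 genes the groups do not overlap, with the widest spread within KO in *Acot1*.

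PPARα with RXR binds a direct repeat of the half-site AGGTCA spaced by 1 base, and the RefSeq promoters (GRCm38.p6, 250 bases before to 50 after the start) were searched for AGGTCANAGGTCA on both strands. Promoters were found for 27 of the 36 genes, 29 promoters in all, and none for *Crat*, *Vnn1*, *Decr1*, *Acat1*, *Angptl4*, *Hsd17b4*, *Acaa2*, *Cyp4a10* and *Cyp4a14*. With at most 2 of the 12 letters differing, a match wholly before the start was found in 3 of the 29, beside 3.24% of 32851 promoters. With at most 3 differing it was found in 8 of the 29, beside 21.3%. Over the whole window, including the bases after the start, it was found with at most 2 differing in 4 of the 29, beside 3.86%, and with at most 3 in 11, beside 24.6%. The 7 below lie wholly before the start. They are shown because they are, before the start, the 3 closest matches and the nearest matches with 3 letters differing in genes that passed. The matched letters are in capitals, read along the gene's strand.
*Acot4* (chr12:84038341-84038378, plus strand, 2 differing, not passed): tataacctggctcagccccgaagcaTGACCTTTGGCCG
*Echs1* (chr7:140116467-140116529, minus strand, 2 differing, not passed): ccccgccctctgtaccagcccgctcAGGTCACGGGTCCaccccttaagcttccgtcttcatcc
*Etfa* (chr9:55512283-55512345, minus strand, 2 differing, not passed): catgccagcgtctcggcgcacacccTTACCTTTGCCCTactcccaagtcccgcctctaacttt
*Acadm* (chr3:153944855-153944893, minus strand, 3 differing, lower): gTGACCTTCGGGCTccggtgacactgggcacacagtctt
*Acot2* (chr12:83987778-83987840, plus strand, 3 differing, higher): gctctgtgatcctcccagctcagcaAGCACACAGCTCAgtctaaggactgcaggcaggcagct
*Bdh1* (chr16:31428559-31428621, plus strand, 3 differing, lower): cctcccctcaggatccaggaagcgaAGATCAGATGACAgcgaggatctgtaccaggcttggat
*Hadh* (chr3:131272150-131272212, minus strand, 3 differing, lower): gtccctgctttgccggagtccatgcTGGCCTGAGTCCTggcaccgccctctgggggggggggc
With 2 letters differing, *Slc25a20* had a match as close, from 6 to 18 bases after the start. None of *Acot4*, *Echs1*, *Etfa* and *Slc25a20* passed. With 3 letters differing, no closer match than that before the start was found in the lower *Acadm*, *Bdh1* and *Hadh*, the higher *Acot2* and in *Etfb*, which did not pass. *Acadm* also had matches as close from 14 to 26 and 16 to 28 bases after the start, and *Acot2* from 18 to 30. *Acot3*, which was not tested, had matches that reached past the start. A match of letters is a description and not a measured binding site, and elements farther away were not searched.

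Omega-oxidation held the most abundant genes of the set. *Cyp4a14* (ENSMUSG00000028715, chromosome 4, 115343397 to 115353339 on GRCm39) and its neighbour *Cyp4a10* (115375461 to 115390846) encode P450 enzymes that hydroxylate the terminal carbon of fatty acids. *Cyp4a14* had 373, 348 and 373 CPM (counts relative to the normalized library size) in LOXP libraries 1, 2 and 3 and 613, 627 and 624 in KO libraries 1, 2 and 3. The groups lay far apart, and the rise of 0.77 on the log2 scale (SE 0.05, adjusted p = 4.89e-05 in edgeR's quasi-likelihood test), from 365 ± 14.7 to 621 ± 7.69 CPM (SD, n = 3), had the smallest adjusted p of the 36 genes. *Cyp4a10* had 431, 432 and 441 CPM in LOXP and 469, 483 and 487 CPM in KO libraries. Its groups did not overlap either, but the change was small, 0.14 (SE 0.04), and its adjusted p of 0.0504 lay just over the threshold. Of the 100-base stretches of *Cyp4a10* transcripts, 12.2% occur in another gene as well, most of them in *Cyp4a32*, whereas none of *Cyp4a14* do, so that reads of *Cyp4a10* may have been split by the counting.

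The pair weighed heavily in the summed level of the 36 genes. The sum of FPKM was 925 ± 20.7 in LOXP and 1050 ± 8.93 in KO libraries (SD, n = 3), with no overlap. *Cyp4a10* and *Cyp4a14* made up 29.7% ± 0.79 of this sum in LOXP and 37.0% ± 0.51 in KO libraries. Without them the sum of the other 34 genes was 650 ± 16.1 and 662 ± 6.04, and the libraries overlapped. FPKM leaves out the normalization factors used for CPM, 0.973 to 0.999 in LOXP and 1.001 to 1.023 in KO libraries. The direction of so small a difference may therefore depend on the scale.

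**Figure D3:**
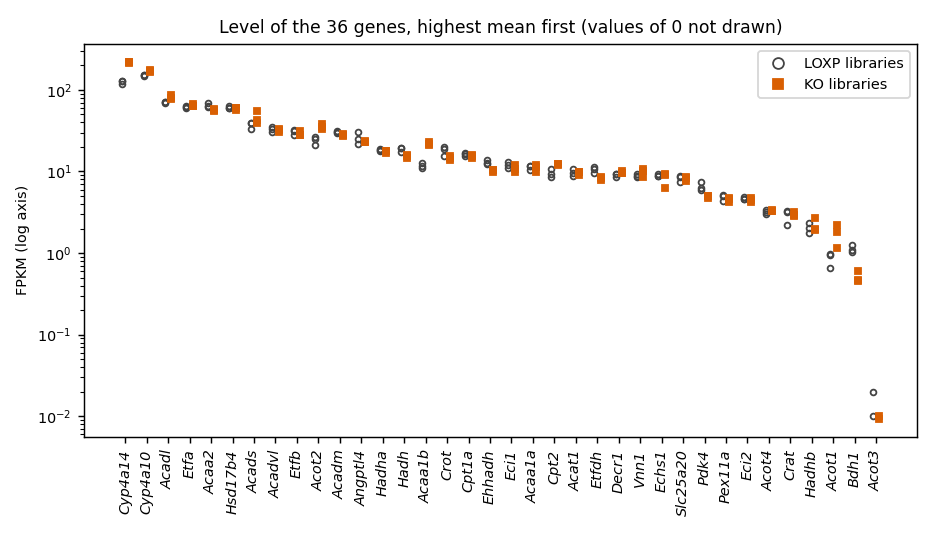
FPKM of each of the 36 genes in each library, on a log axis, with genes ordered by their mean over the 6 libraries. Levels run from 172 FPKM for *Cyp4a14* to 0.00818 FPKM for *Acot3*, and the shift between groups is small beside the differences between genes.

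Acyl-CoA thioesterases, which release free fatty acid from acyl-CoA, lay in 1 cluster of chromosome 12 and did not move alike. *Acot2* (ENSMUSG00000021226, 84034635 to 84040647), the mitochondrial enzyme, had 46.7, 55.8 and 59.1 CPM in LOXP and 71.1, 77.5 and 81.6 CPM in KO libraries. *Acot1* (ENSMUSG00000072949, 84056264 to 84065145), the cytosolic enzyme, had 5.74, 4.13 and 5.93 CPM in LOXP and 6.88, 11.2 and 13.2 CPM in KO libraries. All KO libraries were above all LOXP libraries in both genes, KO library 1 only narrowly so in *Acot1*. *Acot2* rose by 0.51 (SE 0.10, adjusted p = 0.00792) and *Acot1* by 0.99 (SE 0.25, adjusted p = 0.0238). The call of *Acot1* was lost without LOXP library 2 (adjusted p = 0.0608), KO library 2 (0.0768) or KO library 3 (0.0785), with log2 fold changes of 0.84, 0.93 and 0.79. The genes share sequence, 17.1% of the 100-base stretches of *Acot2* transcripts being found in *Acot1*, so their separate values are uncertain. *Acot4*, a peroxisomal enzyme in the same cluster, had 22.7 to 24.2 CPM in LOXP and 22.9 to 24.3 CPM in KO libraries (log2 fold change 0.01, SE 0.08, adjusted p = 0.916). *Acot3* had 2, 0 and 1 counts in LOXP and 1, 0 and 1 counts in KO libraries, which is under 3 counts everywhere and allows no comparison.

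In the carnitine shuttle, *Cpt2* was higher and *Crot* lower, and the outer gate of the pathway was not detectably different. *Cpt1a* (ENSMUSG00000024900), which makes the carnitine ester at the outer mitochondrial membrane and is the rate-controlling step, had 144, 138 and 151 CPM in LOXP and 140, 129 and 134 CPM in KO libraries. The groups overlapped, with a log2 ratio of -0.10 (SE 0.06, adjusted p = 0.261). *Cpt2* (ENSMUSG00000028607, chromosome 4, 107761178 to 107780807), which turns the ester back into acyl-CoA inside, had 45.5, 59.0 and 50.2 CPM in LOXP and 65.1, 66.2 and 61.4 CPM in KO libraries, a rise of 0.32 (SE 0.10, adjusted p = 0.0491). *Crot* (ENSMUSG00000003623, chromosome 5, 9016033 to 9047324), the peroxisomal carnitine octanoyltransferase, had 115, 93.5 and 110 CPM in LOXP and 88.1, 80.1 and 83.6 CPM in KO libraries. It fell by 0.34 on the log2 scale (SE 0.09, adjusted p = 0.0244). Both calls depended on which libraries were included. That of *Cpt2* was kept only when LOXP library 2 was left out (adjusted p = 0.0119) and lost without LOXP library 1 (0.110), LOXP library 3 (0.129), KO library 1 (0.117), KO library 2 (0.139) or KO library 3 (0.0782). That of *Crot* was lost without LOXP library 1 (0.0585), LOXP library 3 (0.0754), KO library 2 (0.0943) or KO library 3 (0.0717). The carrier *Slc25a20* (log2 fold change -0.05, adjusted p = 0.716) and the acetyltransferase *Crat* (0.02, adjusted p = 0.926) did not pass. *Crat* was uneven in the controls, with 41.8, 41.1 and 27.7 CPM.

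Of the 4 acyl-CoA dehydrogenases, which carry out the first step for chains of different length, 1 was lower and 3 did not pass. *Acadm* (ENSMUSG00000062908, chromosome 3, 153627994 to 153650269), for medium chains, had 207, 207 and 198 CPM in LOXP and 185, 183 and 173 CPM in KO libraries. It fell by 0.18 on the log2 scale (SE 0.05, adjusted p = 0.0459), and the groups did not overlap. With 6 libraries the call was at the threshold, and it was lost whichever was left out, without LOXP library 1 (adjusted p = 0.0727), 2 (0.111) or 3 (0.0703) and without KO library 1 (0.0890), 2 (0.118) or 3 (0.164). The dehydrogenase for long chains, *Acadl* (ENSMUSG00000026003), had the highest FPKM of the 4, with a mean of 75.5, though *Acadm* had more CPM. *Acadl* had 143, 147 and 146 CPM in LOXP and 173, 160 and 154 CPM in KO libraries. Its KO libraries were all higher, by 0.16 on the log2 scale (SE 0.06), but the adjusted p was 0.0969. *Acads*, for short chains, had 102 to 123 CPM in LOXP and 118 to 168 CPM in KO libraries (log2 fold change 0.26, SE 0.13, adjusted p = 0.188, and 0.10 without KO library 2). *Acadvl*, for very long chains, had a log2 fold change of -0.09 (adjusted p = 0.435), with 42.9% of its exon bases overlapped by *Dvl2* on the opposite strand.

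Electrons from these dehydrogenases pass through the electron transfer flavoprotein, and of its 2 subunits and their acceptor only the acceptor, *Etfdh*, passed. *Etfa* (ENSMUSG00000032314), the alpha subunit, had 140, 140 and 133 CPM in LOXP and 139, 138 and 143 CPM in KO libraries, which was within the spread (log2 fold change 0.02, SE 0.05, adjusted p = 0.802). *Etfb*, the beta subunit, differed by -0.09 (SE 0.09, adjusted p = 0.502), and 58.2% of its exon bases lie in a second gene model on the same strand, *Gm45233*. *Etfdh* (ENSMUSG00000027809, chromosome 3, 79511095 to 79536807), the oxidoreductase that hands the electrons to ubiquinone, had 111, 94.6 and 103 CPM in LOXP and 81.6, 80.5 and 73.1 CPM in KO libraries. It fell by 0.39 on the log2 scale (SE 0.08, adjusted p = 0.00918), and the call was kept whichever library was left out.

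Of the later mitochondrial steps, *Hadh* and *Acaa2* were lower. *Hadh* (ENSMUSG00000027984, chromosome 3, 131027068 to 131065750), the dehydrogenase for medium and short hydroxyacyl-CoA, had 106, 96.6 and 107 CPM in LOXP and 77.5, 82.7 and 83.9 CPM in KO libraries. It fell by 0.34 on the log2 scale (SE 0.07, adjusted p = 0.00860). *Acaa2* (ENSMUSG00000036880, chromosome 18, 74912268 to 74939279), the thiolase of the last step, had 127, 129 and 142 CPM in LOXP and 116, 115 and 110 CPM in KO libraries, a decrease of 0.22 (log2 fold change -0.22, SE 0.06, adjusted p = 0.0398). No library of one group reached the other in either gene. The *Hadh* call was kept whichever library was left out, whereas that of *Acaa2* was lost without LOXP library 2 (adjusted p = 0.0598), LOXP library 3 (0.122), KO library 1 (0.0867), KO library 2 (0.109) or KO library 3 (0.130). *Acaa2* and *Hsd17b4* are on the chromosome of the targeted gene, 39.0 Mb and 14.4 Mb away from *Sting1*.

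The trifunctional protein, which carries the middle steps for long chains, was not detectably different. *Hadha*, its alpha subunit, had 197, 196 and 205 CPM in LOXP and 189, 181 and 186 CPM in KO libraries, all KO libraries being lower by a small margin (log2 fold change -0.10, SE 0.05, adjusted p = 0.179). *Hadhb*, its beta subunit, had 15.6, 18.5 and 20.8 CPM in LOXP and 23.6, 17.4 and 16.3 CPM in KO libraries. Its groups overlapped (log2 fold change 0.06, SE 0.16, adjusted p = 0.830), and its direction turned without LOXP library 1 (-0.04) or KO library 1 (-0.12). The subunits also stood apart in level, at 17.9 FPKM for *Hadha* and 2.12 FPKM for *Hadhb*, where 14.8% of the 100-base stretches of *Hadhb* transcripts are shared, all with *Gm13910* or a further gene model. *Echs1*, the short-chain hydratase, had 99.0, 105 and 99.6 CPM in LOXP and 103, 69.9 and 97.9 CPM in KO libraries, so that KO library 2 alone was low (log2 fold change -0.17, SE 0.13, adjusted p = 0.408, and -0.01 without that library).

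The auxiliary enzymes that handle double bonds did not pass. *Eci1*, the most abundant of them at 11.5 FPKM, had 42.7, 52.3 and 46.8 CPM in LOXP and 40.7, 46.8 and 37.5 CPM in KO libraries, with overlap (log2 fold change -0.18, SE 0.11, adjusted p = 0.267). *Eci2* had a log2 fold change of -0.11 (adjusted p = 0.288) and *Decr1*, the dienoyl-CoA reductase, of 0.07 (adjusted p = 0.506).

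The ketone body enzymes held the largest decrease of the set. *Bdh1* (ENSMUSG00000046598, chromosome 16, 31241098 to 31277719), which interconverts acetoacetate and beta-hydroxybutyrate, had 147, 144 and 173 counts in LOXP and 84, 75 and 69 counts in KO libraries. As CPM these were 9.28, 10.1 and 11.4 in LOXP and 5.35, 4.05 and 4.02 in KO libraries, with a wide gap between the groups. It fell by 1.20 on the log2 scale (SE 0.16, adjusted p = 0.00149), and the log2 fold change stayed between -1.34 and -1.11 with each library left out in turn. *Bdh1* also had the lowest mean FPKM of the tested genes over the 6 libraries, at 0.822. It had 1.14 ± 0.12 FPKM in LOXP and 0.508 ± 0.087 FPKM in KO libraries (SD, n = 3). Within the LOXP libraries *Acot1* was lower, at 0.852 FPKM. Of the exon bases of *Bdh1*, 13.7% are overlapped on the opposite strand by *Gm15743*. *Acat1*, the thiolase that joins acetyl-CoA units, had 37.7, 41.7 and 45.6 CPM in LOXP and 41.2, 41.6 and 37.6 CPM in KO libraries. Those values overlapped fully (log2 fold change -0.05, SE 0.09, adjusted p = 0.710).

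Peroxisomal beta-oxidation split into a lower *Ehhadh* and a higher *Acaa1b*. *Ehhadh* (ENSMUSG00000022853, chromosome 16, 21580037 to 21606557), the bifunctional hydratase and dehydrogenase of the PPARα-inducible route, had 41.5, 37.5 and 38.3 CPM in LOXP and 30.9, 31.0 and 28.7 CPM in KO libraries. *Acaa1b* (ENSMUSG00000010651, chromosome 9, 118977091 to 118986161), a peroxisomal thiolase, had 26.2, 25.5 and 29.2 CPM in LOXP and 51.1, 49.0 and 47.2 CPM in KO libraries. Neither gene had overlapping groups. *Ehhadh* fell by 0.37 on the log2 scale (SE 0.08, adjusted p = 0.00941), while *Acaa1b* rose by 0.86 (SE 0.08, adjusted p = 0.000245), and both calls were kept whichever library was left out. Its close relative *Acaa1a* had 78.4 to 89.7 CPM in LOXP and 73.3 to 90.9 CPM in KO libraries (log2 fold change -0.05, SE 0.09, adjusted p = 0.750). The thiolases share sequence, with 19.3% of the 100-base stretches of *Acaa1b* transcripts also in *Acaa1a*, so part of their reads cannot be told apart.

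*Hsd17b4*, the bifunctional enzyme for branched chains and bile acid precursors and the most abundant of the peroxisomal members at 60.3 FPKM, had 239, 245 and 251 CPM in LOXP and 221, 237 and 229 CPM in KO libraries. The KO libraries were all lower, by a margin that did not pass (log2 fold change -0.10, SE 0.05, adjusted p = 0.220). *Pex11a*, a membrane protein of peroxisome proliferation, differed by -0.12 (SE 0.09, adjusted p = 0.413).

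Of the remaining PPARα targets, *Pdk4* was lower. *Pdk4* (ENSMUSG00000019577, chromosome 6, 5483351 to 5496309) encodes the kinase that shuts pyruvate dehydrogenase and so favours fat as fuel, and it had 29.6, 24.4 and 25.3 CPM in LOXP and 19.4, 19.8 and 18.3 CPM in KO libraries. The groups were separate and the decrease was 0.46 (log2 fold change -0.46, SE 0.10, adjusted p = 0.0111), kept whichever library was left out. *Angptl4*, a secreted inhibitor of lipoprotein lipase, had 119, 171 and 138 CPM in LOXP and 125, 127 and 125 CPM in KO libraries. Here the spread lay in the controls, and the log2 fold change of -0.18 (SE 0.12, adjusted p = 0.311) did not pass. It was -0.03 without LOXP library 2 and -0.30 without LOXP library 1 (adjusted p = 0.0596). *Vnn1*, a pantetheinase, differed by 0.11 (SE 0.09, adjusted p = 0.443).

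**Figure D4:**
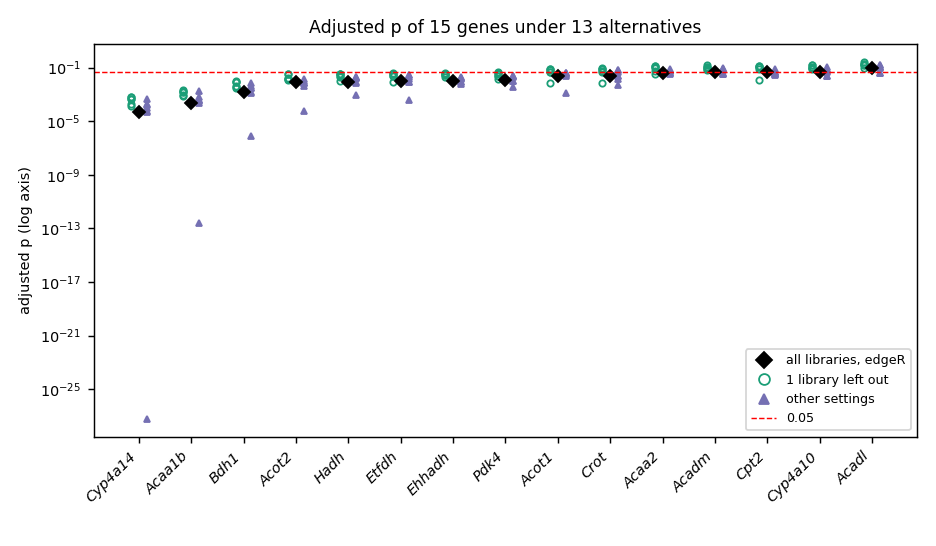
Adjusted p, on a log axis, of the 13 genes that passed and of *Cyp4a10* and *Acadl*, with all libraries in edgeR (black diamonds), with 1 library left out (open circles) and under the other settings (triangles). The dashed line marks 0.05, and 8 genes lie below it in all 13 alternatives.

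Across 13 alternative settings, 8 of the 13 calls were kept in all, those of *Etfdh*, *Hadh*, *Bdh1*, *Ehhadh*, *Acaa1b*, *Cyp4a14*, *Acot2* and *Pdk4*. The other 5, *Acadm*, *Acaa2*, *Cpt2*, *Crot* and *Acot1*, were lost in at least 1, and none of the 13 changed direction.

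A further 74 genes of the pathway that are not among the 36 were listed by role, and 73 were tested. Of these 16 were lower (21.9%, beside 11.6% of all genes) and 10 higher (beside 11.5%), and 13 of the 26 calls were kept in all 13 alternatives. The median log2 fold change was -0.08. In these and the following sentences, genes beyond the most abundant of a list and those with its smallest adjusted p were chosen after their values were seen.

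Among 15 other mitochondrial oxidation and ketone genes, 4 were lower and 1 higher, beside 11.6% and 11.5% of all genes tested. *Acad11*, a dehydrogenase for very long and hydroxylated chains, had 68.0, 71.2 and 79.8 CPM in LOXP and 39.4, 46.2 and 43.1 CPM in KO libraries, with a wide gap between the groups. It fell by 0.77 (log2 scale, adjusted p = 0.000748), and *Acacb*, which makes the malonyl-CoA that restrains *Cpt1a*'s enzyme, by 0.60 (adjusted p = 0.00107). *Mlycd*, the decarboxylase that removes malonyl-CoA, fell by 0.30 (adjusted p = 0.0427) and *Bdh2*, a cytosolic relative of *Bdh1*, by 0.92 (adjusted p = 0.0227). The call of *Mlycd* was lost whichever library was left out (adjusted p up to 0.147), and that of *Bdh2* without LOXP library 1 or 2 or KO library 1 or 3 (up to 0.0757). The monocarboxylate transporter gene *Slc16a1*, which can export ketone bodies, had 146, 126 and 129 CPM in LOXP and 176, 180 and 163 CPM in KO libraries, a rise of 0.37 (log2 scale, adjusted p = 0.00847). *Hsd17b10*, the most abundant of the list at 41.9 FPKM, had 88.9, 73.8 and 73.6 CPM in LOXP and 80.9, 104 and 79.9 CPM in KO libraries, with overlap (log2 fold change 0.16, adjusted p = 0.377).

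Among 24 other peroxisomal genes tested, 6 were lower and 2 higher, beside 11.6% and 11.5% of all genes tested. *Hacl1*, a lyase of alpha-oxidation, had 23.3, 23.7 and 24.0 CPM in LOXP and 16.6, 15.1 and 14.9 CPM in KO libraries (log2 fold change -0.61, adjusted p = 0.00180). *Phyh*, the hydroxylase that starts alpha-oxidation and the most abundant of the list at 126 FPKM, had 242, 250 and 255 CPM in LOXP and 310, 290 and 323 CPM in KO libraries. It rose by 0.31 (log2 scale, adjusted p = 0.00631), so that genes for consecutive enzymes of alpha-oxidation went opposite ways. *Acox2*, the oxidase for branched chains and bile acid precursors, fell by 0.59 (log2 scale, adjusted p = 0.00301). The import receptor gene *Pex5* had 93.7, 105 and 101 CPM in LOXP and 128, 130 and 138 CPM in KO libraries. It rose by 0.41 (log2 scale, adjusted p = 0.00336), while the import and membrane genes *Pex16* and *Pex19* were lower, but *Pex16* did not pass without KO library 2 (adjusted p = 0.0523), and *Pex19* passed with KO library 2 left out and with no other library left out (up to 0.0839).

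**Figure D5:**
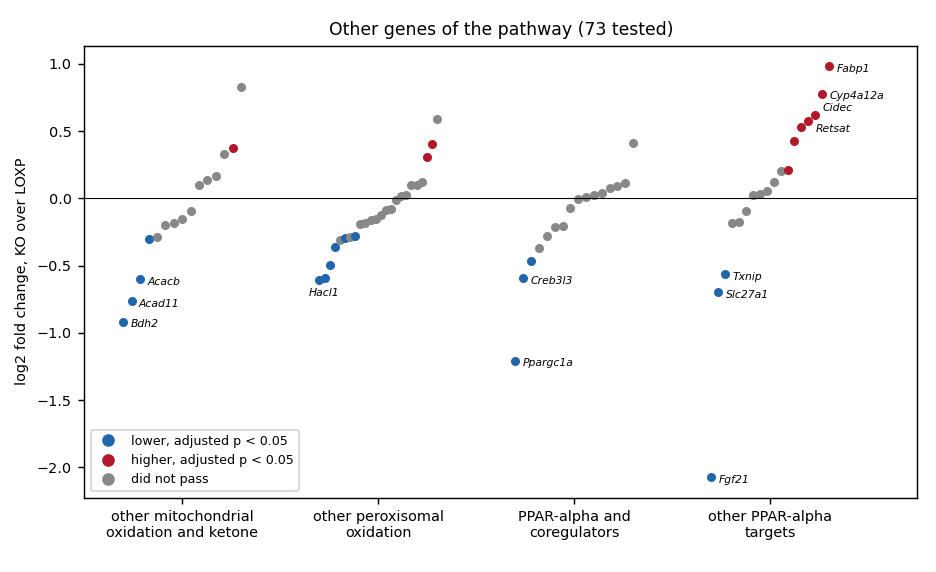
Log2 fold change of KO over LOXP libraries for the 73 other pathway genes tested, in 4 lists, each sorted by its change. Blue points were lower and red points higher at an adjusted p under 0.05, with the lower calls reaching -2.07 for *Fgf21* and the higher calls 0.98 for *Fabp1*.

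Of PPARα, its partners and coregulators, 3 of 16 were lower and 0 were higher at an adjusted p under 0.05 in edgeR. The shares over all genes tested were 11.6% lower and 11.5% higher. *Ppara* itself had 17.9, 18.9 and 19.3 CPM in LOXP and 17.8, 15.9 and 14.8 CPM in KO libraries, all KO libraries being lower but not past the threshold (log2 fold change -0.21, SE 0.10, adjusted p = 0.171). *Creb3l3*, a hepatocyte transcription factor that acts with PPARα on fasting genes and the most abundant of the list, had 100, 111 and 112 CPM in LOXP and 73.1, 67.7 and 73.7 CPM in KO libraries. It fell by 0.59 (log2 scale, adjusted p = 0.000844). The coactivator *Ppargc1a* fell by 1.21 (adjusted p = 0.0300) from a low level of 2.52 to 3.82 CPM, and the deacetylase *Sirt1* by 0.47 (adjusted p = 0.0291). Both calls were lost without LOXP library 1 or KO library 2, that of *Ppargc1a* also without LOXP library 3 or KO library 1 (adjusted p up to 0.0981) and that of *Sirt1* without LOXP library 2 or KO library 3 (up to 0.0943).

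The 18 other PPARα targets held 7 higher and 3 lower genes, beside 11.5% higher and 11.6% lower over all genes tested. *Retsat*, a retinol saturase, had 264, 268 and 278 CPM in LOXP and 412, 383 and 408 CPM in KO libraries (log2 fold change 0.57, adjusted p = 0.000245). *Fabp1*, the liver fatty acid binding protein, rose by 0.98 (adjusted p = 0.000968), *Cyp4a12a* by 0.78 (adjusted p = 0.000814) and the lipid droplet gene *Cidec* by 0.62 (adjusted p = 0.0303). *Plin2*, the most abundant at 292 FPKM and a coat protein of lipid droplets, had 1420, 1393 and 1443 CPM in LOXP and 1547, 1693 and 1685 CPM in KO libraries, a rise of 0.21 (log2 scale, adjusted p = 0.0182). *Fgf21*, a hormone secreted in fasting, had 10.3, 8.81 and 11.6 CPM in LOXP and 2.87, 1.83 and 2.62 CPM in KO libraries, a wide gap (log2 fold change -2.07, adjusted p = 0.000311). *Txnip* and *Slc27a1*, a fatty acid transporter, were lower as well (log2 fold changes -0.56 and -0.70). The call of *Plin2* was lost without LOXP library 2 or KO library 2 or 3 (adjusted p up to 0.0669), that of *Cidec* unless LOXP library 3 was the one left out (up to 0.105), and that of *Slc27a1* without LOXP library 2 or 3 or KO library 1 or 2 (up to 0.0836). Targets assigned to PPARα thus went in both directions, in this list as in the 36 genes.

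Marker genes of hepatocytes and other liver cells were measured beside these results, since fewer cells of a type and less RNA per cell cannot be told apart in bulk RNA. Beside each count of markers below stand the shares over all genes tested, 11.6% lower, 11.5% higher and 50.3% fitted below 0. Of 11 hepatocyte markers tested, 8 were lower and 0 higher at an adjusted p under 0.05 in edgeR. Their summed level was 9454 to 9791 FPKM in LOXP and 8218 to 8379 FPKM in KO libraries. *Alb*, the most abundant, fell by 0.27 (log2 scale, adjusted p = 0.00319), the smallest fall of the 8 lower markers. The median log2 fold change of the 11 was -0.45, and the lowest was -3.30 for *Pck1*. Without *Alb* the summed level was 1957 to 2064 FPKM in LOXP and 1750 to 1795 FPKM in KO libraries. The 8 lower members shared the direction of these markers, and the 5 higher members had the opposite one. The part of the lower marker level in either was not tested. Among other cells, the summed level of 12 macrophage markers was 65.4 to 80.5 FPKM in LOXP and 51.2 to 60.5 FPKM in KO libraries, led by *Cd68* (log2 fold change -0.87, adjusted p = 0.000421), with 2 of 11 lower and 5 of 11 fitted above 0. Without *Cd68* the sum of the other 11 overlapped between the groups, at 27.7 to 40.4 and 31.6 to 37.6 FPKM. The summed level of 7 cholangiocyte markers was 119 to 140 FPKM and 61.8 to 72.8 FPKM, led by *Cldn4* (-1.03, adjusted p = 0.000281), with 3 of 4 lower and 1 higher. The summed endothelial markers overlapped between the groups (31.3 to 33.3 and 28.9 to 32.0 FPKM, led by *Cdh5*, 1 of 9 lower), as did stellate cell markers (18.7 to 20.7 and 19.3 to 21.2 FPKM, led by *Ecm1*, 0 of 9 passed) and adipocyte markers (6.37 to 6.98 and 6.58 to 7.21 FPKM, led by *Fabp4*). Without *Cdh5* the endothelial sums lay narrowly apart, at 22.65 to 25.25 FPKM in LOXP and 20.31 to 22.64 FPKM in KO libraries. Of the 9 endothelial markers tested, 7 were fitted below 0 and 2 above. All 8 lymphocyte markers were at 0 counts in every library, and the 6 neutrophil markers summed to at most 0.721 FPKM. The part of any of these lists in the changes above was not tested.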

How the data were processed

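Primary hepatocyte RNA was sequenced as 150 bp read pairs in 6 libraries, 3 per group, assigned by the sample labels. The submitters' processing notes name fastp, HISAT2, StringTie, edgeR and the GRCm39 build. The counting step, its strand setting and the annotation are not given in the sources used here. The authors deposited 1 table with raw read counts and FPKM values for 57180 genes in each library. FPKM divides the count by 1 fixed length per gene and the library's counted reads.

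The counts were compared with edgeR 4.0.16 under R 4.3.3. Genes kept by filterByExpr (minimum count 10), 14151 in all, were normalized by TMM and compared by the two-sided quasi-likelihood test over all 6 libraries with the group as the only term, and p-values were adjusted by Benjamini-Hochberg over all of them. CPM uses the TMM library sizes. Precision is given by standard errors between libraries. An exact permutation test of 3 libraries against 3 cannot go below p = 0.1 and was not used. The alternatives were DESeq2 1.42.0, upper-quartile factors, a filter of 1 count in total, a filter of 10 counts per library, a block for the replicate number, limma-trend (limma 3.58.1) on log2(FPKM + 1) and log2(FPKM + 0.1) of the deposited FPKM, and each library left out in turn. The fit was tested on simulated data with known changes.

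Values per library are given for each of the 36 genes that passed and for the most abundant gene of each role, and for other lists for the genes with the smallest adjusted p in each direction and the most abundant gene. Values of other members were added after they were seen. The 36 genes, their roles and all lists were chosen with earlier results of these data known. Shared 100-base stretches and exon overlaps were counted on GENCODE M21 (GRCm38), and *Tf* and some genes of the other pathway lists are not reported here. Every pair of libraries within a group differed beyond sampling noise (chi-square over degrees of freedom at least 7.58). Figures were drawn with matplotlib 3.10.9.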

Additional observations from a re-analysis of the deposited data

How the results depend on the processing

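Of 455 results for single members under the 13 alternatives, 407 kept their direction and their side of the threshold, 35 lost the call, 5 gained one and 8 turned direction. The 8 were all leave-one-out fits of genes that had not passed. *Hadhb* turned to -0.04 without LOXP library 1 and -0.12 without KO library 1 (range -0.12 to 0.17 over the 6 libraries left out), *Acot4* to just under 0 without LOXP library 2 and to -0.0065 without KO library 1 (-0.0065 to 0.040), *Crat* to -0.14 without LOXP library 3 and -0.02 without KO library 1 (-0.14 to 0.12), *Acat1* to 0.016 without LOXP library 3 (-0.12 to 0.016) and *Acaa1a* to 0.034 without KO library 1 (-0.12 to 0.034). The targeted gene *Sting1* turned to 0.06 without LOXP library 3 and 0.11 without KO library 3 (-0.26 to 0.11).

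With limma-trend on log2(FPKM + 1), 5 members were lower, against 8, 0 against 1 met the study's criteria as lower (edgeR and DESeq2 each gave 1), and the members' median was -0.047. That scale, which shrinks the changes of low genes, left 93 of all genes lower and 38 higher by the study's criteria, against 211 and 79. On log2(FPKM + 0.1), 5 members were lower and the median was -0.048. On either scale 7 members were higher, against 5, so that more were higher than lower. Over all genes, 1349 were lower and 1818 higher on log2(FPKM + 1), and 1344 and 1823 on log2(FPKM + 0.1), against 1641 and 1633. *Acadl* and *Cyp4a10* passed as higher on both FPKM scales, and the cause was not tested.

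With 1 library left out at a time, 5 to 6 members were lower and 3 to 4 higher, 1 lower and 0 to 1 higher member met the study's criteria, and the members' median lay between -0.11 and -0.052. Over all genes, 1052 to 1515 were lower and 922 to 1510 higher, the fewest without KO library 2, against 1641 and 1633 (193 to 223 and 71 to 86 by the study's criteria), and 9 to 13 of the other pathway genes were lower, against 16 (9 without KO library 2), and 7 to 9 higher. Members called numbered 8 without KO library 2 or KO library 3. These fits have fewer samples.

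Deviations of same-numbered libraries correlated weakly, at 0.12, 0.08 and 0.01, against -0.13 to 0.05 for the other pairs. LOXP library 3 correlated best with KO library 2 (0.05). The labels name no pairing, and such weak correlations cannot decide whether the replicate numbers pair the libraries. With the replicate number as a block, 7 members were lower and 6 higher, 12 of the 13 calls were shared, *Acaa2* was lost and *Cyp4a10* gained. Running the alternatives also for named genes outside the 36 was chosen after seeing the data. Of the 26 calls among other pathway genes, 13 were lost in at least 1 alternative, and the cause was not tested.

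Depth limited *Acot3*, which could not be tested. The widest standard errors were those of *Acot1*, *Hadhb* and *Bdh1*, and the part of depth in them was not tested. The contrast has no untreated cells, so no response to palmitate can be measured.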
